A study of Rattus norvegicus with 6 samples.

Results

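The minor strands were the less abundant arms of microRNA (miRNA) precursors that had reads from both arms in rat plasma exosomes. They were chosen by measured values: for each precursor with a 5p and a 3p strand in the deposited table, the arm with the lower value summed over all 6 libraries was taken, and a fixed set of precursor numbers and the let-7 family were left out. This gave 76 minor strands from 71 precursors, out of 136 precursors with both arms and 420 mature miRNAs. The minor strand was the 3p arm in 41 precursors and the 5p arm in 30, and 5 precursors (miR-17, miR-24, miR-30c, miR-125b and miR-181b) had 2 minor strands from separate gene copies, whose reads were added. That a minor strand lay below its partner was set by this choice and is given as a description.

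Small RNA was sequenced from plasma exosomes of adult male Sprague-Dawley rats with no stated genetic change. Of 6 libraries, 3 came from rats given the solvent, PBS with 5% DMSO, for 7 days by intraperitoneal injection (EXO1), and 3 came from rats given melatonin at 10 mg/kg in the same solvent (EXO2), with plasma taken on day 8. Nothing in the labels ties a library to its own rat. Every p-value below therefore reflects how far libraries of a group lay apart, and that spread may be technical. In such bulk vesicle RNA, fewer vesicles from a cell type and less RNA per vesicle cannot be told apart.

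A miRNA precursor is cut by Dicer into a short duplex, of which an Argonaute protein usually keeps one strand, the guide, while the other, the passenger, is discarded and degraded. The choice is known to depend on the ends of the duplex: the strand whose 5′ end is less tightly paired, and which begins with uracil or adenine, is favoured. A retained strand finds its targets mainly through its seed, bases 2 to 8, so both arms of one precursor have different targets. Exosomes are small vesicles that cells release into blood and that carry miRNAs, and melatonin is the hormone of the pineal gland.

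The sequences on which the results turned are printed from RefSeq (build GRCr8), 5′ to 3′, with the seed in capitals. The first pairs are among those with the most minor strand reads, the later ones are from precursors called lower in arm ratio below, and the last pair has nearly equal arms. Of the 76 minor strands, 67 had an entry in the RefSeq table, as had 64 of the 71 major strands.
miR-106b-3p, minor: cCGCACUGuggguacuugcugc
miR-106b-5p, major: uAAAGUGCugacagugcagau
miR-24-1-5p, minor: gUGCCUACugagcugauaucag
miR-24-2-5p, minor: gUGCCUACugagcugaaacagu
miR-24-3p, major: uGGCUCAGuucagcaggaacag
miR-30a-3p, minor: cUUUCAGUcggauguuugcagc
miR-30a-5p, major: uGUAAACAuccucgacuggaag
miR-30c-1-3p, minor: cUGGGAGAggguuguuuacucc
miR-30c-2-3p, minor: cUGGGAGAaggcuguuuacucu
miR-30c-5p, major: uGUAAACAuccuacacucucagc
miR-204-3p, minor: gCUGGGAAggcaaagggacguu
miR-204-5p, major: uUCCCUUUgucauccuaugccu
miR-18a-3p, minor: aCUGCCCUaagugcuccuucu
miR-18a-5p, major: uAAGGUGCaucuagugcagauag
miR-19b-1-5p, minor: aGUUUUGCagguuugcauccag
miR-19b-3p, major: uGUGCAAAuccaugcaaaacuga
miR-224-3p, minor: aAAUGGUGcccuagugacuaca
miR-224-5p, major: cAAGUCACuagugguuccguuu
miR-181c-5p, minor: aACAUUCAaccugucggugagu
miR-181c-3p, major: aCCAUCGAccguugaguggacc

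In GRCr8, miR-106b-3p lies at chr12:22157062-22157083 on the minus strand, inside the span of Mcm7, which codes for a subunit of the replicative DNA helicase. The strand miR-24-2-5p lies at chr19:40859517-40859538 on the minus strand, outside the span of any other annotated gene. The strand miR-30c-1-3p lies at chr5:139634467-139634488 on the minus strand, inside the span of Nfyc, a subunit of the CCAAT-binding factor. The strand miR-204-3p lies at chr1:229743532-229743553 on the plus strand, inside the span of the ion channel gene Trpm3. In all, 49 of the 67 matched minor strands lay inside the span of a gene other than the miRNA gene, in 35 cases a protein-coding one. The gene table gave no strand or exons, so intron and exon were not assigned.

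The printed pairs show how the strands differed at the 5′ end, a feature that the choice of members did not use. Of 67 minor strands, 28 (41.8%) began with adenine, 21 (31.3%) with cytosine, 11 (16.4%) with guanine and 7 (10.4%) with uracil. Of 64 major strands, 40 (62.5%) began with uracil, 15 (23.4%) with adenine and 9 (14.1%) with cytosine, and none began with guanine. In the 60 precursors with both strands matched, only the major strand began with adenine or uracil in 23, only the minor strand in 5, both in 28 and neither in 4. The first 4 bases held a mean of 2.15 G or C in minor and 1.69 in major strands, and within precursors the minor strand held more in 27, as many in 17 and fewer in 16. Lengths were alike, with a median of 22 nucleotides for both, a range of 18 to 24 for minor and of 19 to 25 for major strands, and a median G+C content of 50% and 45.5%.

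**Figure D1:**
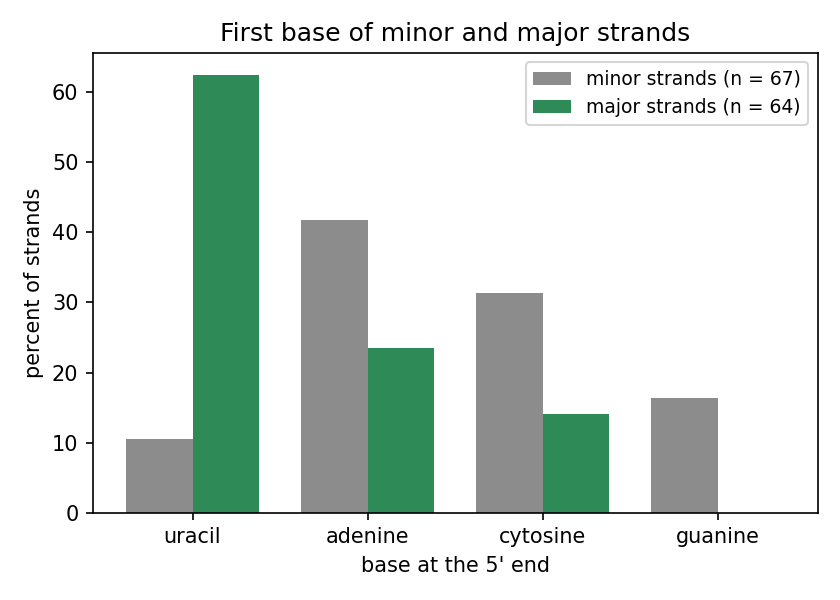
Percent of strands that begin with each base, for 67 minor and 64 major strands matched in RefSeq. Uracil leads 62.5% of major and 10.4% of minor strands, and guanine leads minor strands alone among those matched.

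Among matched strands, the minor strands also shared fewer seeds with each other than the major strands did. There were 62 seeds among 67 minor strands and 47 among 64 major strands, and 10 minor against 29 major strands had a seed in common with another of their kind. The 5 seed pairs of matched minor strands were miR-24-1-5p with miR-24-2-5p, miR-30c-1-3p with miR-30c-2-3p, miR-99a-3p with miR-99b-3p, miR-200a-5p with miR-200b-5p, and miR-17-2-3p with miR-191a-3p. The last pair joins precursors of different families. In the miR-30 family, miR-30a-5p and miR-30c-5p carry the same seed on the major strand, whereas the seeds of their minor strands, printed above, differ. No sequence was matched for the minor strands of miR-30b, miR-30d and miR-30e, so any seed that these share is not counted. The seed of miR-181c-5p, a minor strand here, was that of the major strands miR-181a-5p and miR-181b-5p, and the major strand miR-181c-3p had the seed of the minor strand miR-181a-1-3p. The minor strand miR-193a-3p likewise had the seed of the major strand miR-193b-3p.

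As recovered from the deposited values, the 3 EXO1 libraries held 2279500 to 5868405 miRNA reads and the 3 EXO2 libraries 3033119 to 4999379. A count of 0 reads allowed up to 3 reads, or 0.538 to 1.90 normalized CPM (reads times a factor per library from the authors), with the highest limit in EXO1 replicate 1. Reads carried no molecular identifiers, so these limits cover counting error only. The factor did not follow the read totals. It was 0.634 normalized CPM per read in EXO1 replicate 1, with 5868405 reads, and 0.216 in EXO1 replicate 2, with 2279500 reads. The libraries differed in other respects: 10 erythrocyte miRNAs, all listed, took 7.87% to 23.98% of reads in EXO1 and 57.7% to 67.9% in EXO2, and 7 muscle miRNAs took 82.6%, 23.2% and 0.909% in EXO1 and 0.738% to 1.51% in EXO2. The reads outside both marker lists numbered 561009, 1203625 and 2472144 in EXO1 and 1169223 to 1700436 in EXO2. The part of these differences in any result below was not tested.

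The minor strands held 69459 reads in the 6 libraries against 3536476 of their partners, or 1.96 per 100. Per precursor, the minor strand had a median of 1.95 per 100 of its partner's summed value, under 1 per 100 in 30 precursors, under 10 in 53, under 20 in 61 and under 50 in 67. The 3 lowest ratios were those of miR-100 with 0.012, miR-191a with 0.014 and miR-101a with 0.023 per 100. Just inside the rule, with the arms nearest to equal, were miR-1306 with 95.8, miR-181c with 88.6, miR-3559 with 82.5, miR-106b with 68.2, miR-24 with 36.6 and miR-29c with 35.4 per 100. Which arm was lower held in all 6 libraries for 60 precursors, and the minor strand was the higher arm in at least 1 library in 8.

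**Figure D2:**
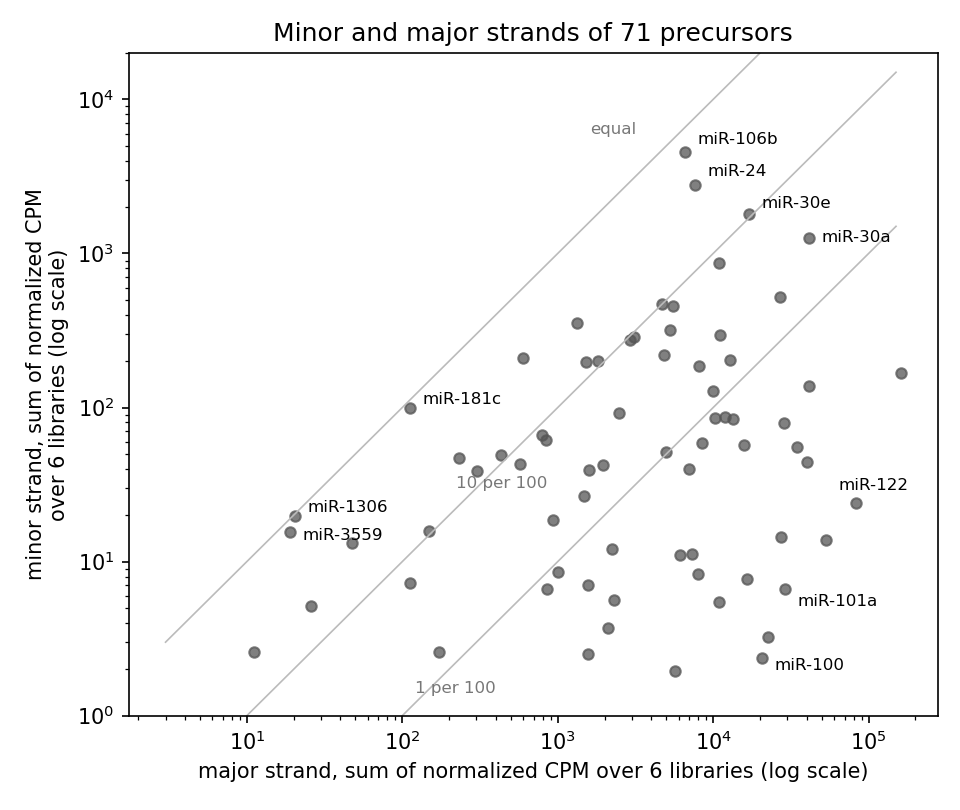
Summed normalized CPM over 6 libraries of the minor strand (vertical, log scale) against the major strand (horizontal, log scale), 1 point per precursor (71), with lines at equal, 10 per 100 and 1 per 100. The points spread over more than 3 orders of magnitude in ratio, from miR-1306 (95.8 per 100) near the line of equality to miR-100 (0.012 per 100) far under it.

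Minor strand reads were concentrated in few precursors. The strand miR-106b-3p, from a paralogue of the miR-17-92 cluster that acts in cell proliferation, held 27.8% of all minor strand reads, and the first 5 strands held 61.4%. In the order EXO1 replicates 1, 2 and 3 and then EXO2 replicates 1, 2 and 3, which is kept below, miR-106b-3p had 802, 3008, 1402, 3269, 6319 and 4503 reads. Its partner miR-106b-5p had 1361, 3734, 2376, 5747, 8609 and 6099 reads. Once scaled, the EXO2 libraries lay above all EXO1 libraries for both arms, and they kept nearly the same proportion throughout, between 56.9 and 80.6 minor per 100 major reads. The scaled level of miR-106b-3p was 490 ± 171 normalized CPM in EXO1 and 1019 ± 258 in EXO2 (SD, n = 3 each). On the log2(value + 1) scale it was higher by 1.09 (SE 0.52, limma adjusted p = 0.342), and its partner by 1.04 (adjusted p = 0.342), while the log2 arm ratio differed by 0.05 (SE 0.37, adjusted p = 0.957).

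The precursor miR-24, of which 1 gene copy lies in each of the clusters of miR-23, miR-27 and miR-24, gave the second largest number of minor strand reads by summed value, and here the libraries did not agree. Its 5p strands had 2526, 711, 326, 901, 1826 and 1681 reads against 1739, 5741, 10704, 6064, 4586 and 2922 of miR-24-3p. The minor strand was thus above the major one in EXO1 replicate 1, at 145 per 100, and at 3.05 per 100 in EXO1 replicate 3, with EXO2 at 14.9, 39.8 and 57.5 between them. Most of these reads were of miR-24-2-5p, with 2525, 649, 253, 664, 1423 and 1680, while miR-24-1-5p had 1, 62, 73, 237, 403 and 1. The groups overlapped, and the log2 arm ratio differed by 0.88 (SE 1.35, limma adjusted p = 0.819).

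The miR-30 family, known for roles in development and differentiation, gave the third and the fourth most abundant minor strands. The strand miR-30e-3p had 349, 992, 1280, 1331, 1599 and 1902 reads, 6.88 to 16.2 per 100 of miR-30e-5p, and miR-30a-3p had 467, 729, 1072, 1015, 1072 and 583, 1.77 to 6.01 per 100 of miR-30a-5p. The ratios of the groups overlapped in each of these precursors. The differences of the log2 arm ratio were 0.21 (SE 0.62, limma adjusted p = 0.898) for miR-30e and -0.08 (SE 0.77, adjusted p = 0.957) for miR-30a. In scaled level, miR-30e-3p was above every EXO1 library in every EXO2 library, by 0.56 (SE 0.57, limma adjusted p = 0.568).

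Other abundant minor strands varied far more from library to library. The strand miR-151-5p had 2 reads in EXO1 replicate 1 and 507, 748, 1217, 263 and 1008 in the others, so its arm ratio ran from 0.05 to 20.1 per 100. The strand miR-140-5p, from a precursor in the span of Wwp2 that is known from cartilage, had 57, 636 and 823 reads in the EXO1 libraries, and EXO2 gave 232, 298 and 242. Its ratio was 0.825, 4.59 and 8.04 per 100 in EXO1 and 1.15, 0.947 and 0.899 in EXO2. The EXO2 values lay close together, above EXO1 replicate 1 and under the other EXO1 libraries, and the log2 difference was -1.66 (SE 1.15, limma adjusted p = 0.436). The strand miR-15b-3p, whose partner belongs to the erythrocyte markers, had 42, 173 and 364 reads in EXO1, and 273, 1290 and 62 followed in EXO2. The strand miR-200a-5p, from an epithelial family, had a scaled level of 5.70, 158 and 23.6 normalized CPM in EXO1 and of 123, 37.0 and 121.6 in EXO2. The groups overlapped in both strands.

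The remaining strands among the 12 highest in summed value were miR-28-5p, miR-148b-5p, miR-22-5p and miR-99b-3p. In miR-28 the minor strand had 258 reads against 175 in EXO2 replicate 1, but 18 against 484 in EXO2 replicate 2. The strand miR-148b-5p had 102 to 212 reads in EXO1 libraries, 350 and 326 in EXO2 replicates 1 and 3, and 0 in EXO2 replicate 2, where its partner had 4692. The strand miR-99b-3p had 6, 334 and 297 reads in EXO1, with 529, 157 and 4 in EXO2. The strand miR-22-5p had 790 reads in EXO2 replicate 2, 41 in EXO2 replicate 1 and 89 to 123 in EXO1. None of the 4 differed in arm ratio beyond this spread (limma adjusted p = 0.827 to 0.958).

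**Figure D3:**
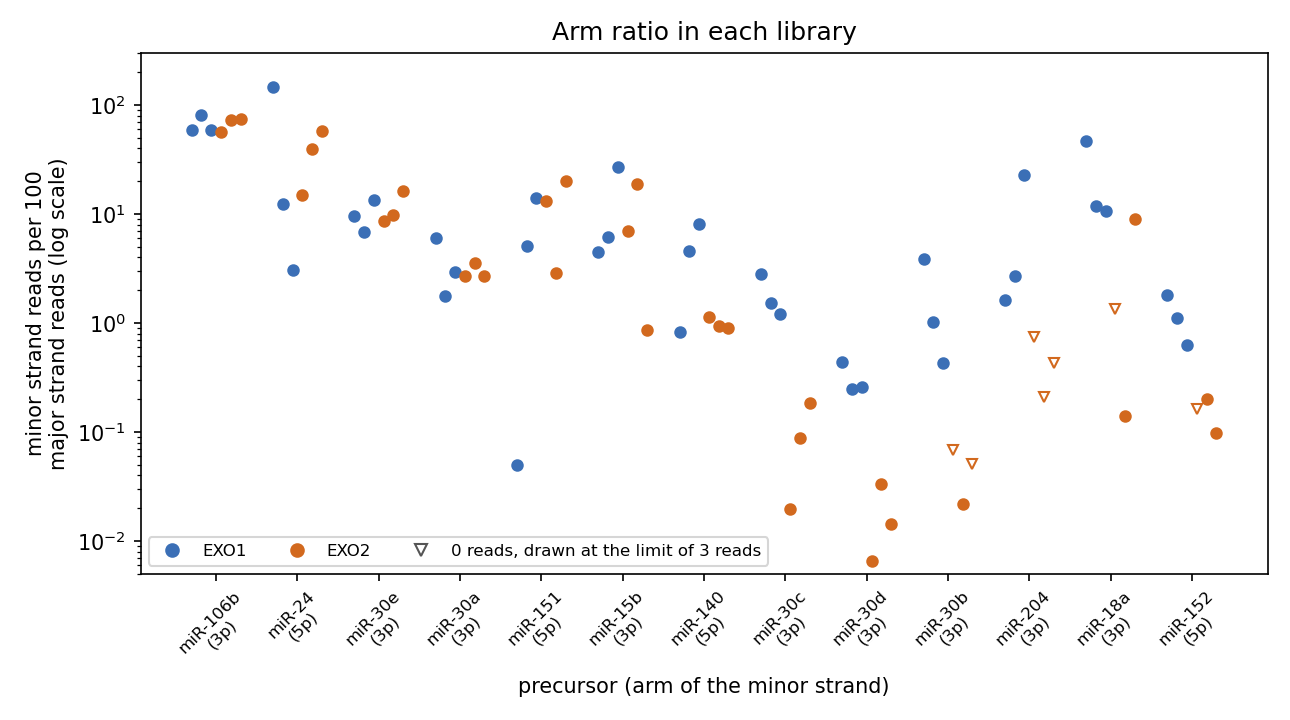
Minor strand reads per 100 major strand reads (log scale) in each library for 13 precursors, blue for EXO1 and orange for EXO2, with open triangles at the limit of 3 reads where no minor strand read was found. The ratio of miR-106b stays between 56.9 and 80.6, that of miR-24 runs from 3.05 to 145, and the EXO2 points of miR-30b, miR-30c, miR-30d, miR-204, miR-18a and miR-152 lie under their EXO1 points.

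In miR-181c, miR-1306 and miR-3559, with nearly equal arms, the choice of the minor strand rested on far fewer reads than in miR-106b. For miR-181c the reads were 0, 43, 80, 112, 266 and 1 of miR-181c-5p against 0, 37, 87, 139, 303 and 1 of miR-181c-3p, so that the arms stayed together while their level ran from absent to 303 reads. For miR-1306, whose gene lies inside the span of Dgcr8, a component of the miRNA processing machinery, miR-1306-3p had 13, 28, 0, 0, 30 and 0 reads and the other arm had 0, 30, 1, 0, 0 and 52, so the arms mostly appeared in different libraries. For miR-3559 there were 26 minor strand reads in all, 24 of them in EXO1 replicate 1. Beside miR-181c and miR-1306, the precursors in which the minor strand was the higher arm somewhere were miR-24, miR-28, miR-29c, miR-193a, miR-1843b and miR-3068. In miR-29c, 319 minor against 172 major reads were found in EXO2 replicate 3, but 10 against 1198 in EXO2 replicate 2.

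The spread between libraries was also described across precursors. Within groups, the SD of the log2 arm ratio had a median of 2.10 over the precursors, against 0.80 for the log2 level of the major strand and 1.31 for that of the minor strand. In the 21 precursors with a mean of at least 100 minor strand reads the medians were 1.88, 0.58 and 1.77 for ratio, major and minor strand. The ratio had 0.5 reads added and the levels 1 normalized CPM, so these SDs are not on quite the same footing for rare strands. A minor strand with 3 reads or fewer in one library and at least 100 in another of the same group occurred in 7 precursors in EXO1 and in 16 in EXO2. In 26 precursors 1 library had more than 2 times the minor strand reads of the others together, and this library was EXO1 replicate 2 in 11 and EXO1 replicate 3 in 10.

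The effect of melatonin on the levels was examined with limma on log2(value + 1), which understates changes of low miRNAs. Of 410 miRNAs above 0 in at least 2 libraries, 74 were minor strands, and the other 2, miR-23b-5p and miR-101a-5p, were read in 1 library each. Their median difference, EXO2 minus EXO1, was -1.09, with 18 above and 56 below 0, against -0.16 for the 71 major strands (32 above, 39 below) and -0.56 for all 410. The 14 minor strands that had no read in EXO2 passed the filter of 2 libraries through EXO1 alone. Their negative sign is tied to the filter, so these counts and medians are a description only. With these 14 set to the limit of 3 reads per library on the same scale, the median was -0.83. Leaving out a library moved the median to between -0.73 (without EXO1 replicate 2) and -1.48 (without EXO1 replicate 1).

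No minor strand passed a limma adjusted p of 0.05 (2-sided, Benjamini-Hochberg; smallest adjusted p = 0.333), as for all miRNAs (0% called), and 5 had an unadjusted p under 0.05. At the study's thresholds (more than 1.5-fold, with p under 0.05 before adjustment) 0 minor strands were higher in EXO2 (5.85% of all miRNAs) and 5, or 6.76%, were lower (7.32% of all). Every EXO2 library lay above every EXO1 library for 3 minor strands (11.5% of all miRNAs), namely miR-106b-3p, miR-30e-3p and miR-103-1-5p, and below for 8 (9.51% of all). For miR-103-1-5p the order is not settled: its 0 reads in EXO1 replicate 1 allowed 1.90 normalized CPM, against 3.10, 1.26 and 1.60 in EXO2. The shares of minor strands were thus near or under those of all miRNAs. Without EXO1 replicate 1 the count of lower strands was 19, and without EXO2 replicate 2 or EXO2 replicate 3 it was 1.

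The 5 lower strands were miR-30b-3p (-3.60, SE 1.36), miR-152-5p (-3.39, SE 1.46), miR-122-3p (-2.63, SE 1.19), miR-125a-3p (-2.72, SE 1.25) and miR-204-3p (-2.42, SE 1.12), with limma adjusted p of 0.333 to 0.342. Of these, miR-122-3p, miR-125a-3p and miR-204-3p had no EXO2 read and miR-30b-3p had 1. They passed the filter through EXO1, so their negative sign is tied to it. The next by unadjusted p were miR-30c-2-3p (-3.36, SE 1.59) and miR-30d-3p (-3.24, SE 1.55), both with an adjusted p of 0.342. Their major strands differed in the level fit by 0.13 for miR-30b-5p, -1.81 for miR-152-3p, -2.45 for miR-122-5p, -1.14 for miR-125a-5p, 0.96 for miR-204-5p, 0.37 for miR-30c-5p and 0.06 for miR-30d-5p. Both arms of miR-122, the main liver miRNA, were therefore lower on average in EXO2, whereas in miR-30b, miR-30c and miR-30d the major strand differed by 0.06 to 0.37.

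The arm ratio, which does not depend on how a library is scaled, was tested with limma on log2 of minor over major reads with 0.5 reads added to each. Of 107 precursors with a mean of at least 5 reads of the lower arm, 58 held minor strands described here, 4 of them with a library missing because both arms together had under 10 reads. The median difference was -1.98 for these 58 (13 above and 45 below 0) and -1.85 for all 107 (26 above and 81 below 0). Of the 58, 18 reached a mean of 5 minor strand reads in EXO1 but not in EXO2, 1 in EXO2 but not in EXO1, and 39 in both, and 11 had 0 or 1 read in EXO2 as a whole. For strands admitted through EXO1 the negative sign is tied to the filter, so the counts and medians over the 58 are a description only. With the 7 strands that had no read in EXO2 set to their bound (the ratio of group means, at 3 reads per EXO2 library), the median of the 58 was -1.67. The 49 other precursors tested, those left out by number and let-7, had a median of -1.63.

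No arm ratio passed a limma adjusted p of 0.05 (2-sided, 0% of all precursors; smallest adjusted p among the 58 = 0.110), and 7 had an unadjusted p under 0.05. At the study's thresholds 0 were higher in EXO2 (0.935% of all precursors) and 7, or 12.1%, were lower (14% of all). Among the 7, miR-30b, miR-204, miR-19b and miR-224 were admitted through EXO1, so their negative sign is tied to the filter. Every EXO2 library lay above every EXO1 library in 1 precursor (1.87% of all), miR-135b, and below in 14, or 24.1% (25.2% of all). In 5 of the 14 (miR-19b, miR-26b, miR-101a, miR-194 and miR-224) an EXO1 library also had 0 minor strand reads, so the order rested on the depth of the major strand, and the same held for an EXO2 library of miR-135b. The order rested on 2 libraries per group in miR-181c and on 2 EXO2 libraries in miR-135b, since the others had under 10 reads of both arms. For miR-122 the order is not settled, since its mean EXO2 limit, given below, lay above EXO1 replicate 1. The count of 7 became 13 without EXO1 replicate 1 or EXO2 replicate 1, 3 without EXO1 replicate 2 and 4 without EXO1 replicate 3 or EXO2 replicate 3. Without EXO1 replicate 3, 1 precursor passed the adjustment, miR-23a with a log2 difference of -5.73 (SE 0.96, limma adjusted p = 0.0431), against -3.41 (adjusted p = 0.357) in all libraries. Both values depend on the added 0.5 reads, since miR-23a-5p had 11, 19 and 0 EXO1 reads and no EXO2 read. The library left out was thus the EXO1 library with 0 reads. This precursor was admitted to the fit through EXO1, so its negative sign is tied to the filter. Against the limit of 3 reads its arm ratio was at least 5.84-fold lower with all libraries kept.

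Of the 5 precursors of the miR-30 family, a list chosen with earlier results known, 3 were among the 7 lower ratios, beside the 14% of all precursors. The strand miR-30b-3p had 36, 32 and 46 EXO1 reads but 0, 1 and 0 EXO2 reads, whereas miR-30b-5p had 935, 3101 and 10802 against 4335, 4598 and 5880. The ratio was 3.85, 1.03 and 0.426 per 100 in EXO1, and 3 reads, the limit for a count of 0, would have been 0.069, 0.065 and 0.051 per 100 in EXO2. The groups did not overlap, and the log2 difference was -6.36 (SE 1.55, limma adjusted p = 0.110). This value depends on the added 0.5 reads, and miR-30b was admitted to the fit through EXO1. The difference stayed between -7.10 and -5.51 when any library was left out.

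In miR-30c, whose paired minor strands share the seed printed above, the summed reads were 56, 105 and 98 in EXO1 but 2, 9 and 12 in EXO2. Those of miR-30c-5p were 1969, 6867 and 8014 in EXO1 and 10204, 10134 and 6503 in EXO2. The ratio was 1.22 to 2.84 per 100 in EXO1 and 0.02 to 0.185 in EXO2, again without overlap, with a log2 difference of -4.53 (SE 1.54, limma adjusted p = 0.229). The strand miR-30d-3p behaved alike, with 34, 63 and 79 EXO1 reads and 2, 10 and 3 EXO2 reads beside 7682 to 30536 reads of miR-30d-5p. Its log2 difference was -4.20 (SE 1.47, limma adjusted p = 0.231). The more abundant miR-30a-3p and miR-30e-3p had the differences near 0 given above, so the 5 members of the family had 1 positive and 4 negative differences with a median of -4.20. Leaving out a library gave -5.20 to -3.71 for miR-30c and -4.73 to -3.68 for miR-30d.

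Outside this family, miR-204-3p, from a precursor known from the eye and the choroid plexus, had 8, 4 and 57 EXO1 reads and no EXO2 read. Its partner miR-204-5p was not lower there, with 489, 149 and 250 EXO1 reads and 400, 1425 and 695 EXO2 reads. Taken against the limit of 3 reads per library, the arm ratio was at least 19.5-fold lower in EXO2, but only at least 4.66-fold without EXO1 replicate 3, whose ratio of 22.8 per 100 was far above the others. The fitted log2 difference was -6.18 (SE 1.53, limma adjusted p = 0.110), a value that depends on the added 0.5 reads.

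The precursors miR-18a and miR-19b belong to the miR-17-92 cluster. The strand miR-18a-3p had 31, 36 and 21 EXO1 reads and 0, 2 and 40 EXO2 reads, beside 66 to 302 EXO1 reads and up to 1412 EXO2 reads of miR-18a-5p. EXO2 replicate 3, at 9.07 per 100, came close to the lowest EXO1 library, at 10.8, while the other EXO2 libraries were far under it. The log2 difference was -4.69 (SE 1.95, limma adjusted p = 0.290), and it ran from -3.68 without EXO2 replicate 2 to -6.53 without EXO2 replicate 3. The strand miR-19b-1-5p had 0, 11 and 43 EXO1 reads and 0, 0 and 1 EXO2 reads (-4.10, SE 1.68, limma adjusted p = 0.290), and miR-224-3p had 0, 5 and 34 EXO1 reads and no EXO2 read (-3.27, SE 1.30, limma adjusted p = 0.290). In both, EXO1 replicate 1 also had 0 reads, and both values depend on the added 0.5 reads. The value of miR-19b ran from -2.78 without EXO1 replicate 3 to -5.39 without EXO1 replicate 1, and that of miR-224 from -2.85 to -3.94. For miR-224 the bound was only at least 1.27-fold lower, and without EXO1 replicate 3 it was under 1.

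The next 3 precursors by unadjusted p did not reach the study's thresholds. All 3 were admitted to the fit through EXO1, so their negative sign is tied to the filter. For miR-122 the minor strand had 8, 5 and 81 EXO1 reads and no EXO2 read, beside 34837, 14307 and 220736 EXO1 reads of miR-122-5p and 10547 to 15927 EXO2 reads. In EXO1 the ratio of miR-122 was 0.023, 0.035 and 0.037 per 100, and the limit of 3 reads gave a mean of 0.024 per 100 in EXO2. By group means the ratio was thus at least 1.29-fold lower in EXO2, with the EXO1 counts taken as read. The mean limit lay above EXO1 replicate 1, so the order of the libraries is not settled. For miR-152 there were 57, 20 and 47 EXO1 reads and 0, 3 and 1 EXO2 reads (-3.49, SE 1.55, limma adjusted p = 0.324). For miR-125a, a homologue of the founding worm miRNA lin-4, there were 19, 66 and 2 EXO1 reads and no EXO2 read, at least 7.66-fold lower, and with the low EXO1 replicate 3 the fitted ratios overlapped.

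The precursors were also divided by depth. The 21 precursors with a mean of at least 100 minor strand reads had a median log2 difference of -0.12, with 9 above and 12 below 0 and 0 of them at an unadjusted p under 0.05 in limma. The 37 with fewer reads had a median of -2.72, with 4 above and 33 below 0 and all 7 lower calls. A strand with few EXO2 reads is more likely to fall among the 37, of which 18 had a mean of 5 reads in EXO1 only, so the division is not independent of the difference. With strands without EXO2 reads at their limit, the median of the 37 was -2.34. Leaving out EXO1 replicate 1 or EXO2 replicate 1 moved the median of the deeper precursors to -0.79 and -0.72, and the other libraries moved it to between -0.21 and -0.06.

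**Figure D4:**
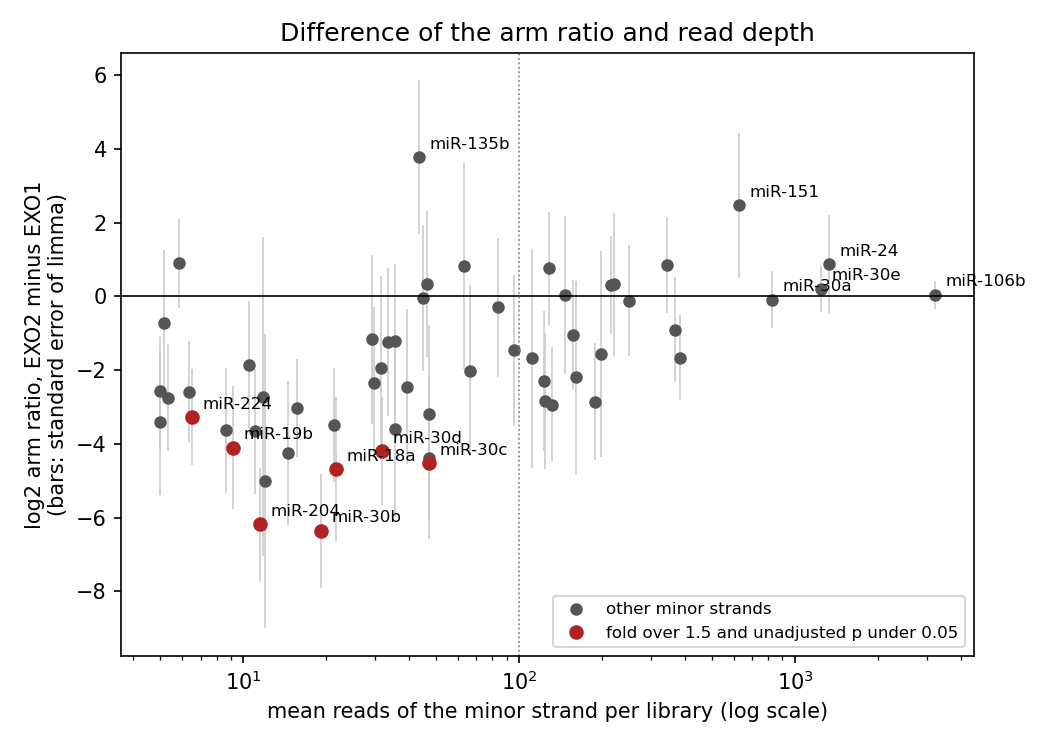
Difference of the log2 arm ratio, EXO2 minus EXO1, for 58 precursors (vertical, bars are limma standard errors) against the mean minor strand reads per library (horizontal, log scale), with a dotted line at 100 reads and the 7 calls at fold over 1.5 and unadjusted p under 0.05 in red. Points right of the line scatter around 0 (median -0.12), and those left of it lie mostly below 0 (median -2.72).

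Most lists of related precursors also had medians below 0, like all precursors tested. Of the 11 listed precursors of the miR-17-92 and paralogue clusters, 6 had both arms, and 5 of these had a negative difference and 2 were called lower (median -3.27), with miR-106b the exception, beside the 81 negative of all 107 and the 14% called lower. In the miR-10, miR-99, miR-100 and miR-125 families 5 of 6 tested differences were negative (median -2.56), in the miR-181 family 3 of 3 (median -2.29), for miR-148a, miR-148b and miR-152 3 of 3 (median -2.84), and in the clusters of miR-23, miR-27 and miR-24 3 of 4 (median -1.34), with 0 called at the study's thresholds. The liver precursors miR-122 and miR-194 were both negative (median -2.81, or -1.48 with miR-122 at its bound). Other tissue lists gave 1 positive and 2 negative values in epithelial precursors (median -2.34) and 1 of each among leukocyte precursors (median -1.42), miR-223 being positive and miR-150 negative. The single endothelial (miR-221, -2.85) and neuronal (miR-7a, -2.01) precursors tested were negative, and no muscle precursor had both arms. In these lists miR-19b, miR-23a, miR-99a, miR-122, miR-125a, miR-141, miR-152, miR-181b, miR-194 and miR-200b were admitted to the fit through EXO1. Their negative sign is tied to the filter, so the counts and medians of the lists are a description only.

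The 6 precursors listed as known to yield both strands in quantity (miR-17, miR-28, miR-30a, miR-30e, miR-140 and miR-151) had a median of -0.10, with 2 positive and 4 negative differences from -4.39 (miR-17) to 2.47 (miR-151). In the family of miR-15, miR-16 and miR-195 the median was -0.90 (1 positive, 2 negative), in the miR-29 family 0.00 (1 of each) and in the group of miR-26b and miR-103 -1.38 (1 of each, or -0.59 with miR-26b at its bound). The negative sign of miR-26b, admitted through EXO1, is likewise tied to the filter. No precursor of any list passed the limma adjustment over all 107 precursors (adjusted p = 0.110 to 0.987), against the median of -1.85 over all precursors tested.

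Per library, sums and counts gave different pictures. Summed over the 71 precursors there were 2.14, 2.23 and 1.11 minor per 100 major reads in EXO1 and 2.12, 2.37 and 2.68 in EXO2. Without miR-24 and miR-106b the values were 0.812, 1.57 and 0.960 in EXO1 and 1.42, 1.18 and 1.37 in EXO2, and the groups overlapped in both. The minor strand had 0 reads in 29, 1 and 11 precursors in EXO1 and in 34, 24 and 28 in EXO2. The EXO1 libraries had median log2 arm ratios of -6.89, -5.24 and -6.07 and the EXO2 libraries lower ones of -8.97, -8.73 and -9.41, while in the summed reads a few strands carried most of the weight. These medians include the empty minor strands with 0.5 reads added. They therefore depend in part on that addition and on the depth of the major strands. EXO1 replicate 1, with most of its reads from muscle miRNAs, resembled EXO2 in its number of empty minor strands.

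**Figure D5:**
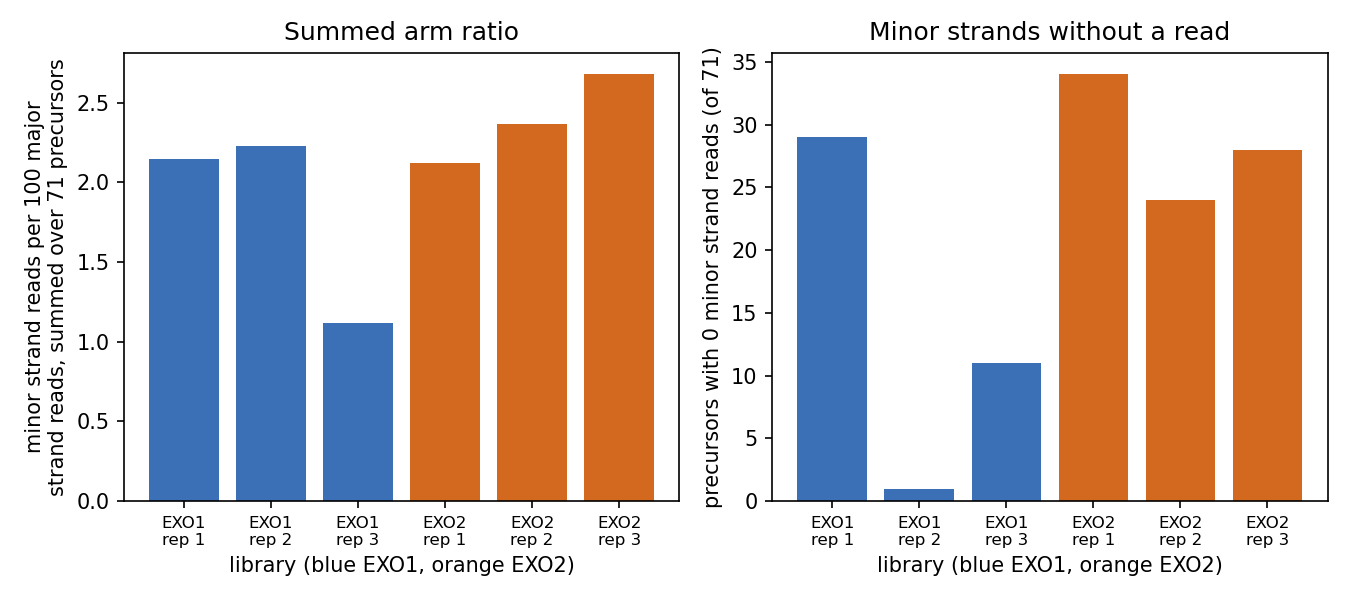
Minor strand reads per 100 major strand reads summed over 71 precursors (left) and number of precursors without a minor strand read (right), 1 bar per library, blue for EXO1 and orange for EXO2. The summed ratio lies between 1.11 and 2.68 with overlapping groups, and EXO1 replicates 2 and 3 have the fewest empty minor strands, 1 and 11.

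The composition of the deposited table bears on these counts. Of its 420 miRNAs, 107 (25.5%) had 3 reads or fewer in every EXO2 library, but only 7 (1.67%) in every EXO1 library, and for minor strands the numbers were 31 of 76 (40.8%) and 0. Among miRNAs with up to 1000 reads in all, 31 of 63 minor strands (49.2%) and 76 of 175 others (43.4%) had 3 reads or fewer in every EXO2 library. The rows low in EXO1 all reached at least 62 reads in some EXO2 library, whereas rows low in EXO2 had as few as 5 reads in EXO1. How miRNAs were admitted to the table is not given in the sources used here, and its part in the lower values of rare strands in EXO2 was not tested.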

How the data were processed

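Small RNA reads of 6 plasma exosome libraries were trimmed and annotated with miRDeep2 by the authors, with reads of at least 15 nucleotides kept. According to the submitters' processing notes, cutadapt 1.14, Bowtie and edgeR 3.18.1 were used, with the genome build and miRNA release not given in the sources used here. In the table, the deposited signal per library and mature miRNA, headed CPM, was a whole number of reads times a library factor, from which reads were recovered (100% whole within a relative tolerance of 1e-06). In 5 of 6 libraries too few values were low for a count test to be admitted, so normalized values were tested. The authors' 2 columns of group log2 means were not used. The sources differ on the carrier (saline or PBS) and on exosome isolation (kit or centrifugation).

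Of repeated mature miRNAs (43) the row with the highest sum was used. With limma 3.58.1 (R 4.3.3; moderated by eBayes along a mean trend), EXO2 was set against EXO1 without covariates, levels as log2(value + 1) of miRNAs above 0 in at least 2 libraries and arm ratios as log2((minor reads + 0.5)/(major reads + 0.5)), with p-values adjusted over all features tested. SE values are limma's. The tests were checked on simulated data. The simulation set the same spread beyond counting error for all strands, so it does not cover the larger swings between libraries described above. Named were the 12 minor strands highest in summed value, the 6 highest and 3 lowest arm ratios, the 10 smallest p in the ratio fit and the 8 smallest in the level fit, precursors whose higher arm changed, and members of the lists. Members and lists were chosen with earlier results of these data known. Alternatives were other scalings, pseudocounts and filters, summed repeated rows, the highest row of each arm, no trend, a replicate block and leaving out each library. Sequences and gene spans are from RefSeq tables of GRCr8. Python 3.11.15, pandas 2.3.3 and matplotlib 3.10.9 were used.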

Additional observations from a re-analysis of the deposited data

How the results depend on the processing

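The minor arm of all 71 precursors was the same when arms were compared by reads, by their highest row or with repeated rows summed, and that of 66 when the strand had to be lower in at least 4 of 6 libraries (miR-1306, miR-181c, miR-193a, miR-33 and miR-3559 did not). Of the 10 precursors named by their p in the ratio fit, all 144 alternative values stayed negative. Among them miR-30b, miR-204, miR-19b, miR-224, miR-122, miR-152 and miR-125a were admitted through EXO1. Their negative sign is tied to the filter, so its persistence is a description only. The 7 lower arm ratios became 4 with at least 20 reads on average and 4 with the ratio kept in every library, and 3 to 13 when a library was left out. The 0 higher ratios became 0 to 1 and the 0 adjusted calls 0 to 1 without a library, the adjusted call being that of miR-23a, admitted through EXO1. The 5 lower levels became 3 and the 0 higher levels 1 when only miRNAs at 10 normalized CPM in 3 libraries were kept, 10 lower without a trend, and 1 to 19 lower and 0 to 2 higher without a library. With the replicate block there were 1 lower and 1 higher level and 8 lower ratios. The labels do not say whether libraries of the same number belong together. Correlations of same-numbered deviations were -0.12 to 0.06 in levels and -0.04 to 0.07 in ratios, which does not settle it. The block counts are therefore values under a shared number only. Of 280 values of single levels, 12 turned sign, none of them with a call: miR-24-2-5p became -0.072 with RLE size factors and miR-30a-3p 0.069 when scaled by library totals, and leaving out a library gave -0.89 to 1.52 for miR-24-2-5p, -0.43 to 1.44 for miR-15b-3p, -2.54 to 0.69 for miR-148b-5p, -0.65 to 1.27 for miR-22-5p and -1.88 to 1.04 for miR-99b-3p. Scaling by library totals moved the median level difference of all 410 miRNAs by 0.13, from -0.56 to -0.43, and that of the minor strands from -1.09 to -1.27. The cause was not tested. For 13 of the 71 precursors reads were too few for the ratio to be fitted, and at the low depth of most minor strands a change could not be detected below the limits given.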
